A study of Homo sapiens with 16 samples.

Results

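The PRDM genes encode transcriptional regulators with a PR domain and, in most members, zinc fingers. The 8 members described here are PRDM1, PRDM14, PRDM2, PRDM4, PRDM8, PRDM10, PRDM15 and PRDM16, taken by symbol from the 18495 probe sets of the deposited array table, with the probe set of the highest mean used for each gene. Of the 8 members 7 had a probe set of their own, and PRDM2 was measured only by a probe set that is also listed for C1orf196, so its values may come from either gene. PRDM10 had a second, dimmer probe set shared with FABP1, which was not used. RefSeq places PRDM1 on chromosome 6, PRDM14 on 8, PRDM2 and PRDM16 on 1, PRDM4 on 12, PRDM8 on 4, PRDM10 on 11 and PRDM15 on 21, so the family is scattered over the genome.

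The cells were H9, an established line of human embryonic stem cells, profiled on 16 Human Exon 1.0 ST arrays, which probe the exons of each gene. The groups were undifferentiated cells (day 0, n = 4) and cells after 1 day (n = 3), 3 days (n = 3) and 5 days (n = 4) with activin A at 100 ng/ml. Activin A is a TGF-beta family ligand that signals through SMAD2 and SMAD3 and is used to turn pluripotent cells toward definitive endoderm, the layer that gives rise to gut, liver and pancreas. Undifferentiated cells were kept on mouse embryonic fibroblast feeders or Matrigel, in fibroblast-conditioned medium with basic fibroblast growth factor at 8 ng/ml, whereas activin was given in another medium with stepwise raised serum. Activin, medium, serum and time in culture therefore cannot be told apart. All samples come from 1 cell line, and replicate 4 of day 0 and of day 5 was the mean of a pair of technical arrays.

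PR domains are related to the SET domain of histone methyltransferases, and many PRDM proteins act mainly by recruiting chromatin-modifying complexes to DNA. PRDM1, also called BLIMP1, is a repressor that drives plasma cell formation and, with PRDM14, the specification of primordial germ cells in the mouse. In human embryonic stem cells PRDM14 is known as a factor that maintains pluripotency.

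The 250 bases before each RefSeq start site of PRDM1 (GRCh38.p14, plus strand, 5′ to 3′) are shown because PRDM1 differed most among the members at days 3 and 5 against day 0. Capitals mark the letters CAGAC (the box bound by SMAD proteins), ACAAT (a core bound by SOX proteins) and GAAAG (a core bound by PRDM1), searched on both strands, and no 2 matches overlap. The first window is chr6:106086086-106086335 and the second is chr6:106098691-106098940.

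PRDM1 first start: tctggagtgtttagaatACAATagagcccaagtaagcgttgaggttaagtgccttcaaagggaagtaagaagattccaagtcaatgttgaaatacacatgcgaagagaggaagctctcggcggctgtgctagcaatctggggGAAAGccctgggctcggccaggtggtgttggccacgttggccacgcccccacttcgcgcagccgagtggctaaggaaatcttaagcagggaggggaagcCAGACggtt

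PRDM1 second start: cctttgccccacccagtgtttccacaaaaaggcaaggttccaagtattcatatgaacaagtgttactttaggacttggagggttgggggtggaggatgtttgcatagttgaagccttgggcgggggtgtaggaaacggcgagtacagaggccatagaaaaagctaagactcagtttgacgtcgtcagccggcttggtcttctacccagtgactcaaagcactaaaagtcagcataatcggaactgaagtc

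The first window held 1 match to each of these 3 motifs and the second held none. CAGAC was found in 38% of 35116 windows of the same length before RefSeq start sites, ACAAT in 24.6% and GAAAG in 48.9%. The letters AATCCACA (FOXH1, a partner of SMAD proteins), TCACACC (T-box factors such as EOMES), GATAA (GATA factors) and GGTCTCTAA (PRDM14) were in neither PRDM1 window, and occurred in 0.709%, 2.76%, 20.4% and 0.131% of all windows. Windows were matched for 6 of the 8 members, 14 in all, and PRDM14 and PRDM16 had no entry. A match describes the letters only, and which start site was used was not measured here.

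The samples were alike within days, except that day 3 replicate 2 correlated less with its own day, at a median Pearson r of 0.829 over all probe sets. Day 5 replicate 2 had 0.858, and the other 12 samples had 0.901 to 0.962. The summed intensity of 8 definitive endoderm markers (SOX17, FOXA2, GATA6, CXCR4, CER1, HHEX, GSC and EOMES) reached 3741 in day 3 replicate 2, while replicates 1 and 3 of that day had 42300 and 48340 and the day 0 samples 2582 to 7245. The library labelled day 3 replicate 2 thus lay within the day 0 range of this sum. CER1 made up most of the sum in that sample and in each day 0 sample. The day 3 differences of named genes are given with and without day 3 replicate 2. It was singled out from these same data, so p-values without it are not independent of that choice. The markers of undifferentiated cells, 7 of 8 measured, summed to 36370 to 49620 in undifferentiated cells and to 37810 to 45900, 27330 to 31590 and 19910 to 35380 after 1, 3 and 5 days. In day 3 replicate 2 the sum of undifferentiated markers was 27330, below every day 0 sample and beside 27460 and 31590 in the other day 3 samples. Array medians were 245.1 to 246.3, and an array has no read depth. The precision depended on the number of samples and also on day 3 replicate 2, which enters the spread shared by all days. For PRDM1 at day 5 against day 0 the SE was 0.83 with that sample and 0.36 without it.

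At day 5, PRDM1 was 21.3-fold higher and PRDM14 5.97-fold lower than at day 0, while the other 6 members did not pass the test. These were the only 2 of 8 members past an adjusted p of 0.05 (limma on log2 intensity plus 1, Benjamini-Hochberg over all probe sets), 1 higher and 1 lower, where 5.46% of all 18495 probe sets passed. At day 1 no member passed, where 0.00541% of all probe sets did, and at day 3 no member passed, where 0.027% did. Without day 3 replicate 2 the same comparisons called 0.249% of probe sets at day 1, 3.19% at day 3 and 8.73% at day 5, and PRDM1 and PRDM14 were the members called at day 3 and at day 5. The median difference of the 8 members was -0.07 after 1 day, -0.16 after 3 days and -0.01 after 5 days, beside 0.025, -0.015 and -0.021 over all probe sets. In bulk RNA, fewer cells that make a transcript and less of it per cell cannot be told apart.

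PRDM1 intensity, on the log2 scale, was 5.38, 5.65, 5.50 and 6.48 in the 4 undifferentiated samples. It was 5.87, 6.07 and 7.17 at day 1, then 10.91, 6.21 and 10.91 at day 3, and 10.28, 9.36, 10.61 and 10.42 at day 5. Every day 5 sample was above every sample of days 0 and 1, and at day 3 only replicate 2 overlapped those days. Days 5 and 0 did not overlap in 14.6% of all probe sets, and that share is not given here for days 5 and 1. Undifferentiated cells averaged 5.75 ± 0.50, and cells after 1, 3 and 5 days of activin averaged 6.37 ± 0.70, 9.34 ± 2.71 and 10.17 ± 0.55 (SD, n = 4, 3, 3 and 4).

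The day 5 minus day 0 difference of PRDM1 was 4.42 ± 0.83 (SE, 95% confidence interval 2.62 to 6.21, limma adjusted p = 0.00774), the 36th highest of 18495 probe sets. At day 3 the difference from day 0 was 3.59 ± 0.90 (1.65 to 5.53, limma adjusted p = 0.192), and it was 5.16 ± 0.44 without day 3 replicate 2 (limma adjusted p = 0.000149), a 35.7-fold difference. That fit has 2 day 3 samples, both at 10.91. Day 3 replicate 2 was singled out from these same data, so this adjusted p is not independent of that choice. What sets day 3 replicate 2 apart was not tested. At day 1 PRDM1 differed from day 0 by 0.62 ± 0.90 (limma adjusted p = 1), where the SE rests on a spread shared by all days. Without day 3 replicate 2 it was 0.62 ± 0.39 (-0.23 to 1.47, limma adjusted p = 0.791). The difference passed in neither fit, and the samples of both days overlapped.

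Between the activin days, PRDM1 was 13.9-fold higher at day 5 than at day 1 (3.80 ± 0.90, limma adjusted p = 0.0365), where 3.33% of probe sets passed and 6.11% did without day 3 replicate 2. That call depended on which samples were fitted. The limma adjusted p was 0.172, 0.118 and 0.0737 without day 1 replicate 1, 2 or 3. It was 0.0889, 0.0824 and 0.0823 without day 5 replicate 1, 3 or 4. Without day 3 replicate 2, which is in neither group, it was 0.000165 (SE 0.39), and a fit of only the 2 groups compared gave 0.00806. From day 3 against day 1 PRDM1 differed by 2.97 ± 0.96 (limma adjusted p = 0.318), where 0.0324% of probe sets passed, and by 4.54 without day 3 replicate 2 (limma adjusted p = 0.000862), where 2.73% passed. Day 5 and day 3 differed by 0.83 ± 0.90 (limma adjusted p = 0.999), where 0.0973% of probe sets passed. Without day 3 replicate 2 that difference was -0.74 (limma adjusted p = 0.543), where 0.157% passed.

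PRDM14 intensity was 11.86, 11.57, 11.15 and 11.39 at day 0 and 10.67, 10.55 and 9.59 at day 1. It was 8.91, 10.16 and 8.86 at day 3 and 8.72, 7.98, 9.45 and 9.51 at day 5. Each later day lay wholly below day 0, and day 5 also lay wholly below day 1. For days 5 and 1 the share of all probe sets without overlap is not given here. Undifferentiated cells averaged 11.49 ± 0.30, and cells after 1, 3 and 5 days averaged 10.27 ± 0.59, 9.31 ± 0.73 and 8.91 ± 0.72 (SD, n = 4, 3, 3 and 4).

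PRDM14 fell by 2.58 at day 5 against day 0 (SE 0.40, limma adjusted p = 0.00251), the 27th lowest of 18495 probe sets. At day 3 the difference from day 0 was -2.18 ± 0.44 (4.54-fold lower, limma adjusted p = 0.161), and without day 3 replicate 2 it was -2.61 ± 0.43 (limma adjusted p = 0.00635). At day 1 it was -1.22 ± 0.44 (limma adjusted p = 0.595, 0.293 without day 3 replicate 2). All 3 day 1 samples were below all 4 day 0 samples, as for 11.5% of probe sets in either direction, and the shares without overlap were 9.82% at day 3 and 14.6% at day 5. Day 5 and day 1 differed by -1.36 ± 0.44 (limma adjusted p = 0.131) and day 3 and day 1 by -0.96 ± 0.47 (limma adjusted p = 0.617), or -1.38 without day 3 replicate 2 (limma adjusted p = 0.145). Day 5 and day 3 differed by -0.40 ± 0.44 (limma adjusted p = 0.999), and by 0.03 without day 3 replicate 2 (limma adjusted p = 0.982), so the sign of that difference rests on this sample.

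Over all days, the moderated F test passed for PRDM1 (limma adjusted p = 0.0201) and PRDM14 (limma adjusted p = 0.011), where 3.73% of probe sets passed, and the other 6 members had adjusted p of 0.627 to 0.999. The F call for PRDM1 was lost without day 0 replicate 1, 2 or 3 or day 5 replicate 1 or 3, with adjusted p of 0.0576, 0.0572, 0.0519, 0.0593 and 0.0551. PRDM14 kept its F call in each of these leave-outs. Without day 3 replicate 2 the F test gave limma adjusted p of 2.33e-05 for PRDM1 and 0.00207 for PRDM14.

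**Figure D1:**
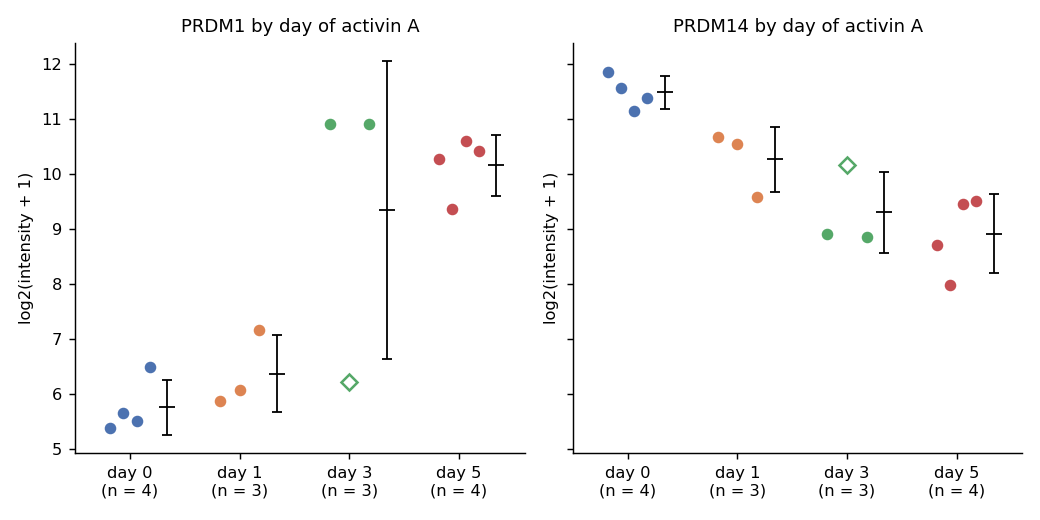
PRDM1 (left) and PRDM14 (right) by day, with log2(intensity + 1) on the vertical axis. Each point is 1 biological sample, the open diamond is day 3 replicate 2, and the bar beside each day is the mean ± SD. PRDM1 lies at 9.36 to 10.61 at day 5, above the 5.38 to 6.48 of day 0, and PRDM14 lies at 7.98 to 9.51 at day 5, below the 11.15 to 11.86 of day 0.

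In day 3 replicate 2 both genes lay within the day 1 range, at 6.21 for PRDM1 (day 1, 5.87 to 7.17) and 10.16 for PRDM14 (day 1, 9.59 to 10.67). Across members this sample was below the other day 3 samples for 7 of 8 and above them for PRDM14. It was the lowest of all 14 samples for 2 members, the PRDM2 probe set and PRDM16, as it was for 17.3% of all probe sets. Day 1 replicate 3 had the highest PRDM1 and the lowest PRDM14 of its day. Its definitive endoderm marker sum, 35000, was also the highest of day 1, against 15200 and 11870 in the other samples. CER1 made up most of the sum in each day 1 sample. SOX17, FOXA2, GATA6, CXCR4, GSC and EOMES were also highest of day 1 in replicate 3, and HHEX was not. The part of these markers in the PRDM values was not tested.

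Summed markers of other cell types were set beside these values, without a test. Visceral and yolk sac endoderm markers, 5 of 8 measured, summed to 1622 to 3086 at day 5, against 266.5 to 494.7 at day 0. Trophoblast and amnion markers, 7 of 9 measured, summed to 507.7 to 979.3 at day 5, against 288.8 to 479.1 at day 0. Both sums were higher in every day 5 sample than in every day 0 sample. Mesoderm markers, 8 of 10 measured, summed to 1348 to 2357 at day 5, lower in every sample than the 2376 to 3033 of day 0. Neural ectoderm markers, 7 of 8 measured, summed to 5943 to 10330 at day 5, against 3881 to 7570 at day 0, and overlapped. The part of these cell types in the PRDM1 and PRDM14 differences was not tested.

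The remaining 6 members were PRDM2 (RIZ, a histone H3 lysine 9 methyltransferase), PRDM4 (a partner of the p75 neurotrophin receptor), PRDM8 (needed for neural circuit assembly in the mouse), PRDM10 (a zinc finger transcription factor), PRDM15 (a regulator of WNT and MAPK signalling in mouse embryonic stem cells) and PRDM16 (a determinant of brown fat). Their 18 differences from day 0 were -0.27 to 0.36, with 95% intervals reaching from -1.21 to 1.23 and a lowest limma adjusted p of 0.695. None of the 18 had an unadjusted p under 0.05. Without day 3 replicate 2 they were -0.23 to 0.68, with 95% intervals reaching from -0.86 to 1.55 and a lowest limma adjusted p of 0.528. The intervals of each fit bound the differences of these probe sets, that of PRDM2 being shared with C1orf196. They do not show that the genes stayed level.

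Within this group PRDM10 intensity was 7.56, 6.85, 7.63 and 7.46 at day 5, against 8.17, 7.61 and 8.13 at day 1. The ranges of day 5 and day 1 overlapped by a small margin. The difference was -0.59 ± 0.25 (unadjusted p = 0.037, limma adjusted p = 0.293), so the comparison did not pass. At day 0 PRDM10 had 7.49, 7.80, 7.56 and 7.58, and day 1 minus day 0 was 0.36 ± 0.25 (limma adjusted p = 1). PRDM15 was 6.77, 6.73 and 6.79 at day 3, against 7.24, 6.82 and 7.46 at day 1. These did not overlap, and the share of all probe sets without overlap in that comparison is not given here. The limma adjusted p was 0.757 (difference -0.41), or 0.57 without day 3 replicate 2 (-0.39).

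The PRDM2 probe set had 9.16, 8.98, 8.82 and 9.55 at day 0, then 9.12, 8.45 and 9.55 at day 1, then 9.94, 7.58 and 9.67 at day 3, and 9.14, 8.52, 9.66 and 9.92 at day 5. Its days overlapped, and day 3 replicate 2 was the lowest of the 14 samples. Day 3 minus day 0 was -0.07 with that sample and 0.68 without it (limma adjusted p = 0.528). PRDM4 ranged from 8.41 to 9.38 over all samples and its day means from 8.88 to 8.99, a narrower spread of means than of samples.

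PRDM8 had 4.53, 5.04, 4.72 and 5.58 at day 0, 4.77, 5.09 and 4.34 at day 1, 5.13, 4.37 and 4.80 at day 3, and 4.97, 4.95, 5.13 and 4.84 at day 5. PRDM16 had 5.90, 4.82, 5.55 and 5.97 at day 0, 5.45, 5.48 and 5.53 at day 1, 5.79, 4.42 and 5.67 at day 3, and 5.77, 5.91, 5.81 and 5.17 at day 5. All days overlapped in both genes, and the day 0 samples spread from 4.53 to 5.58 in PRDM8 and from 4.82 to 5.97 in PRDM16. PRDM8 and PRDM16 were also among the dimmest 25% of probe sets. A filter on those kept the other 6 members.

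**Figure D2:**
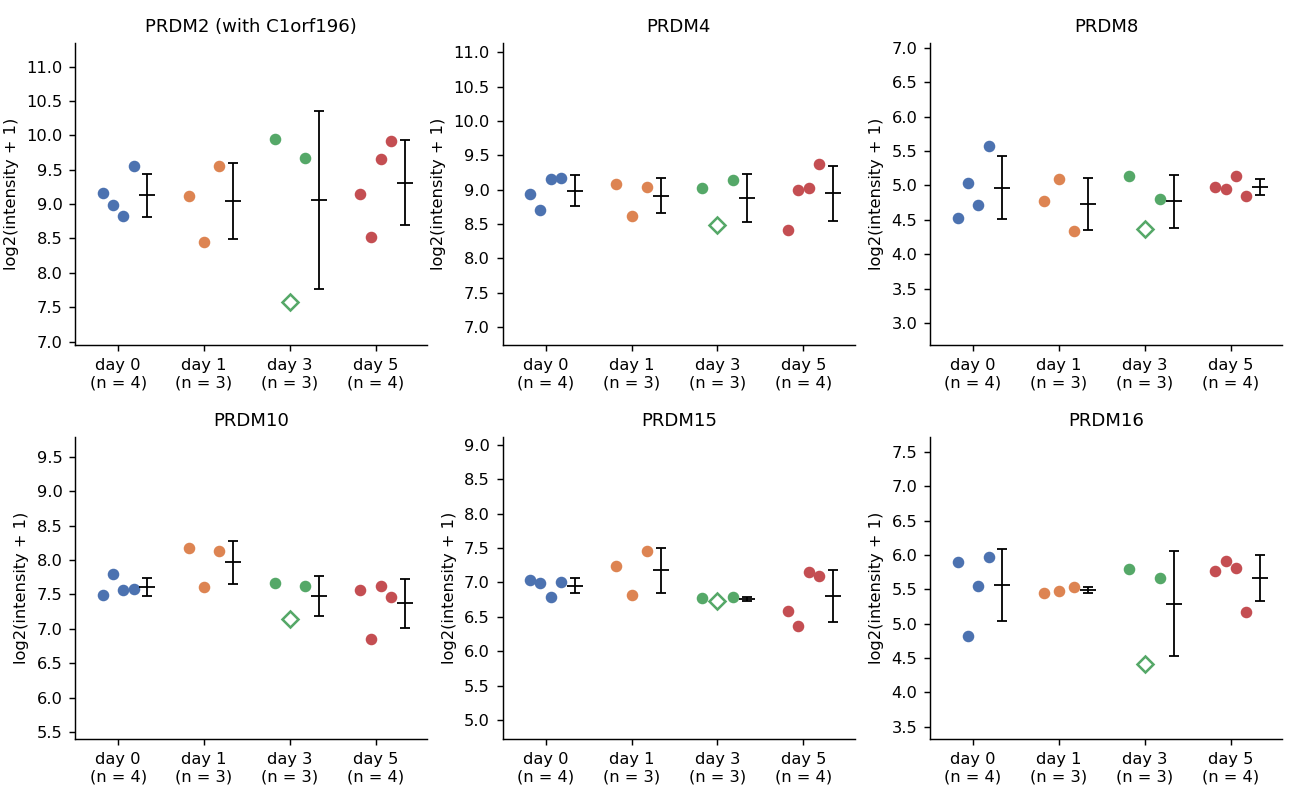
The 6 members other than PRDM1 and PRDM14, with log2(intensity + 1) on vertical axes of equal length and days on the horizontal axis. Each point is 1 biological sample, the open diamond is day 3 replicate 2, and bars are the mean ± SD. In PRDM2 and PRDM16 that sample is the lowest of 14, at 7.58 and 4.42.

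**Figure D3:**
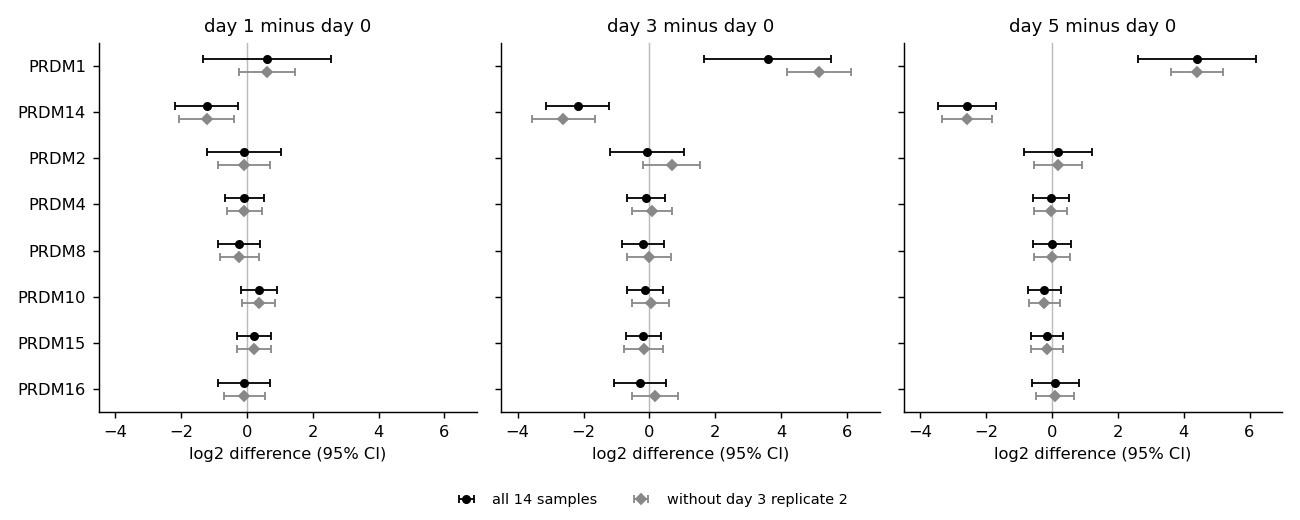
Differences from day 0 for the 8 members at day 1, day 3 and day 5, on the log2 scale with 95% confidence intervals from limma, for all 14 samples (circles) and without day 3 replicate 2 (diamonds). PRDM1 lies at 4.42 and PRDM14 at -2.58 at day 5, and the intervals of the other 6 members include 0.

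Of 9 further PR domain genes looked for, MECOM, PRDM11, PRDM13 and ZNF408 had a probe set of their own. None of these 4 passed in any comparison, where at most 5.46% of all probe sets did, and their median day 5 difference from day 0 was 0.11. MECOM, a regulator of blood stem cells, differed by 0.27 ± 0.25 at day 5 (limma adjusted p = 0.657) and PRDM13, which acts in neural tube patterning in the mouse, by 0.32 ± 0.42 (limma adjusted p = 0.774). PRDM11 differed by -0.45 ± 0.31 (limma adjusted p = 0.542) and ZNF408 by -0.04 ± 0.34 (limma adjusted p = 0.968).

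Partner proteins through which PRDM factors act on chromatin were measured with 20 own probe sets, among them the EZH2 complex and the TLE corepressors. None of the 20 passed at day 1, day 3 or day 5 against day 0, where 0.00541%, 0.027% and 5.46% of all probe sets did. The median day 5 difference of the 20 was -0.34, beside -0.021 over all probe sets. TLE2, a Groucho-type corepressor, differed by 1.36 ± 0.40 at day 5 (limma adjusted p = 0.074), and by the same amount with an adjusted p of 0.00298 without day 3 replicate 2. KDM1A, a lysine demethylase, differed by -0.66 ± 0.27 (limma adjusted p = 0.219) and JARID2, a partner of the EZH2 complex, by -1.02 ± 0.44 (limma adjusted p = 0.251).

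Primordial germ cells are the setting in which PRDM1 and PRDM14 are best known together. Genes of these cells had 11 own probe sets, of which 1 rose and 1 fell at day 5, where 5.46% of all probe sets passed. These 2 calls became 1 without day 0 replicate 1, 2 or 4 or day 5 replicate 2 or 3, and 3 without day 3 replicate 2, when KIT, a receptor kinase also in the endoderm list, was called too (1.69, limma adjusted p = 0.003, against 0.0694 with all samples). SOX17, a germ cell and endoderm regulator that also belongs to the endoderm list, rose by 4.88 ± 1.00 (limma adjusted p = 0.012). PDPN, a membrane glycoprotein, fell by 1.20 (SE 0.28, limma adjusted p = 0.0254). The median of the 11 was -0.30 at day 5. TFAP2C, an early human germ cell factor, had 8.23, 8.74 and 8.01 at day 1, against 9.62, 10.02, 10.10 and 10.84 at day 0. Its days 1 and 0 did not overlap, as in 11.5% of all probe sets, and the difference of -1.82 ± 0.51 did not pass (limma adjusted p = 0.312). The germ cell markers, 2 of 6 measured, summed to 206.1 to 668.3 at day 5, against 809.3 to 1853 at day 0. TFAP2C made up most of this sum in every sample, so the sum does not show a fall separate from that gene.

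Genes around PRDM1 in B cells and plasma cells had 12 own probe sets, with a median of -0.16 at day 5. Of these 12, 1 fell at day 5 and none rose, where 5.46% of all probe sets passed. That count was 0 without day 0 replicate 1, 2 or 3 or day 5 replicate 4, and the SPIB call therefore rested on few samples. SPIB, a B cell transcription factor that PRDM1 is known to repress, fell by 2.10 (SE 0.49, limma adjusted p = 0.0233). It had 4.49, 4.26, 4.23 and 3.12 at day 5, against 6.36, 6.94, 6.61 and 4.60 at day 0, and 7.95, 7.85 and 7.68 at day 1. PAX5 and MYC, other genes known to be repressed by PRDM1, differed by 0.45 ± 0.21 (limma adjusted p = 0.292) and -0.96 ± 0.34 (limma adjusted p = 0.142). IRF4, also in this list, differed by -0.64 ± 0.22 (limma adjusted p = 0.121, 0.0527 without day 3 replicate 2). Blood cell markers, 4 of 6 measured, summed to 106.4 to 128.6 at day 5 and 81.91 to 126.5 at day 0, with 1 marker at a mean intensity under 16 on each day.

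Brown fat genes around PRDM16 had 8 own probe sets and none passed against day 0, where at most 5.46% of all probe sets did. EBF2, a transcription factor of brown fat precursors, had 9.51, 8.59 and 8.92 at day 1, against 5.10, 6.02, 5.97 and 6.10 at day 0. All day 1 samples were higher, and the difference of 3.21 ± 0.51 had a limma adjusted p of 0.0649, or 0.00775 without day 3 replicate 2. At day 3 EBF2 differed from day 0 by -0.73 (limma adjusted p = 0.777), and by -0.13 without day 3 replicate 2 (limma adjusted p = 0.968).

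Of 18 pluripotency genes looked for, 12 had an own probe set, and POU5F1, NANOG and SOX2 did not. Of the 12, 1 rose and 3 fell at day 5, with a median of -0.78, where 5.46% of all probe sets passed. These 4 calls became 2 without day 0 replicate 1, 2 or 4 or day 5 replicate 1. GDF3, a TGF-beta family ligand, rose by 2.08 ± 0.36 (limma adjusted p = 0.00441), whereas DNMT3B, a DNA methyltransferase, fell by 1.83 (limma adjusted p = 0.0242) and TERF1, a telomere protein, fell by 1.76 (limma adjusted p = 0.00541). Of 16 definitive endoderm genes 13 rose and none fell at day 5, with a median of 3.62. At day 3 none passed with all samples, where 0.027% of all probe sets did. Without day 3 replicate 2, 12 passed at day 3, where 3.19% of all probe sets did. Of 11 primitive streak genes, 6 rose and 1, FGF4, fell at day 5, beside the same 5.46% of all probe sets. These lists share SOX17, GSC, EOMES, LHX1 and other genes, so their counts are not independent.

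Genes whose pattern was most like that of PRDM1 over the 14 samples were CLMP (Pearson r = 0.982), SEMA5A (0.980), PLXNA2 (0.973), PLCE1 (0.971), GATA4 (0.971) and DLC1 (0.971), among 3310 probe sets with 1 symbol whose day means span at least 1 on the log2 scale. GATA4, an endoderm and heart transcription factor, had means of 5.86, 6.09, 8.82 and 10.41 at days 0, 1, 3 and 5. For PRDM14 they were COL14A1 (0.964), SYT6 (0.956), ZNF398 (0.955), TENT5B (0.955), MET (0.949) and KCNG3 (0.939). Without day 3 replicate 2, 4 of the 6 were shared for PRDM1 and 6 of 6 for PRDM14, and NDRG4 and COLEC12 entered for PRDM1. These correlations describe samples that share days and day 3 replicate 2, and carry no test.

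**Figure D4:**
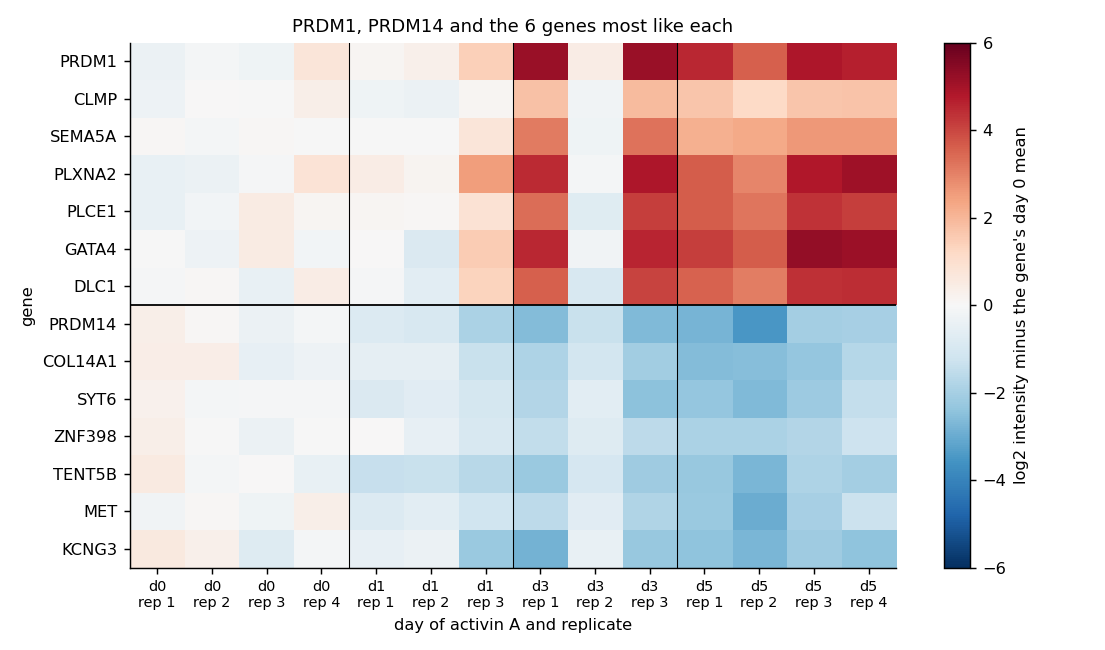
PRDM1, PRDM14 and the 6 genes most like each (rows) in the 14 samples (columns, by day and replicate). Colour is log2 intensity minus the gene's day 0 mean, red above and blue below. In day 3 replicate 2 the 6 rows like PRDM1 lie below their day 0 means, such as DLC1 at 5.68 against 6.65, while the other day 3 samples are high.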

How the data were processed

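Exon arrays were hybridised with biotin-labelled cDNA made from total RNA after removal of ribosomal RNA, per the labels' protocols. The authors deposited 1 linear intensity per gene-level probe set and array, and the submitters' processing notes name build hg18. How they summarised, background-corrected and normalized them is not given in the sources here. The near-equal array medians look like quantile normalization, inferred from the values alone.

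A pseudocount of 1 was added before log2, and averaging the technical arrays left 14 samples in the 4 groups the labels give. The labels call these biological replicates without naming separate cultures, so p-values measure the spread between these samples. Probe sets were named from GEO's platform annotation, in which 14577 have 1 symbol, 2849 several and 1069 none. Tests between days used limma 3.58.1 (lmFit, eBayes) under R 4.3.3, having 10 residual and 3 prior degrees of freedom, adjusted over 18495 probe sets at 0.05, and checked on simulated data. Named genes were all members, the other PR domain genes with an own probe set, at most 4 per list and comparison with day 0 by smallest p, and the 6 most alike. PAX5, MYC, SPIB, IRF4, TFAP2C and EBF2 fall under that rule. Same-numbered samples of days 3 and 1 deviated together in all 3 pairs (r 0.188, 0.509 and 0.365), a pairing taken from the data and not from the labels. Members and lists were chosen with earlier results of these data known. Alternatives were the technical arrays, replicate block, fits of 2 groups, quantile and median scaling, a dim filter, variance trend, array weights, pseudocount 16, threshold 0.01, a second probe set and left-out samples. Windows before start sites came from RefSeq. Python 3.11.15, pandas 2.3.3 and matplotlib 3.10.9 drew the figures.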

Additional observations from a re-analysis of the deposited data

How the results depend on the processing

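PRDM1 and PRDM14 at day 5 against day 0 kept their direction and their call in all 9 fits without 1 sample of those days or day 3 replicate 2 (PRDM1 4.27 to 4.68, adjusted p 1.95e-05 to 0.0298; PRDM14 -2.78 to -2.27, adjusted p 0.000689 to 0.0122), and under the other settings run (PRDM1 4.07 to 4.76, PRDM14 -2.58 to -2.18). At day 3 against day 0 the leave-one-out range was 2.81 to 5.16 for PRDM1 and -2.61 to -1.96 for PRDM14, with 0 to 2 members called. Leaving out single samples gave 0 to 1 members called for day 3 against day 1, 0 to 1 for day 5 against day 1, and 1 to 2 for the F test. Without replicate 2 of days 3 and 5 together, 2 members were called for day 3 against day 0 and 2 for day 3 against day 1, with PRDM1 at 5.16 (adjusted p = 0.000118) and PRDM14 at -2.61 (adjusted p = 0.00157) at day 3. At a threshold of 0.01 no member passed for day 5 against day 1 or for the F test (0 and 0). Array weights, whose estimation did not converge and which gave day 1 replicate 1 a weight of 17.3 and day 3 replicate 2 one of 0.0972, called 2 members for day 1 against day 0, 2 for day 3 against day 0, 5 for day 3 against day 1, 4 for day 5 against day 1 and 5 for the F test, with PRDM1 at 5.10 (adjusted p = 3.63e-05) and PRDM14 at -2.62 (adjusted p = 0.000126) at day 3. Of 357 values of the other 6 members against day 0 under all alternatives, 1 was called, PRDM10 at day 1 with array weights (0.54, adjusted p = 0.0116). The cause of these changes was not tested. The share of all probe sets called is not given here for array weights, for the replicate block or without replicate 2 of days 3 and 5 together. Whether the member counts under those settings exceed a general change in calls therefore cannot be told.

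Of the differences whose sign turned before rounding, 48 in all, 2 of which print as -0.00, none passed the test in either setting. With array weights they were PRDM2 0.01 and PRDM4 0.12 at day 1, PRDM2 0.68, PRDM4 0.09, PRDM8 0.09, PRDM10 0.03 and PRDM16 0.18 at day 3, PRDM4 0.15 and PRDM15 0.09 at day 5 (each against day 0), and PRDM1 -0.33 and PRDM14 0.44 for day 5 against day 3. Without replicate 2 of days 3 and 5 together they were PRDM2 0.68, PRDM4 0.09, PRDM10 0.04 and PRDM16 0.17 at day 3 against day 0, and PRDM1 -0.47 and PRDM14 0.34 for day 5 against day 3. With PRDM10's shared second probe set they were -0.35 at day 1 and 0.48 at day 5 against day 0 and 0.83 for day 5 against day 1. With 1 technical array they were PRDM4 0.02, PRDM8 -0.05 and PRDM16 -0.00 at day 5, and with a pseudocount of 16 PRDM8 -0.00 at day 5. Leave-one-out ranges that cross 0 were, at day 1, PRDM2 -0.34 to 0.21, PRDM4 -0.17 to 0.08 and PRDM16 -0.32 to 0.06, at day 3 PRDM2 -0.5 to 0.68, PRDM4 -0.24 to 0.09, PRDM8 -0.38 to 0.01, PRDM10 -0.23 to 0.04 and PRDM16 -0.52 to 0.17, at day 5 PRDM2 -0.02 to 0.45, PRDM4 -0.18 to 0.14, PRDM8 -0.14 to 0.21 and PRDM16 -0.14 to 0.27, and for day 5 against day 3 PRDM1 -0.74 to 1.61 and PRDM14 -0.62 to 0.03. Same-numbered samples of days 3 and 1 correlated above 0.1 in all 3 pairs (0.188, 0.509 and 0.365), so the numbers may tie those samples, and in each other comparison at least 1 pair was at or below 0.1 (range over 19 pairs -0.284 to 0.645, 10 above 0.1). With the replicate number as a block, 2 members were called for day 5 against day 0 and 1 for day 5 against day 1, as without it, none was called for day 3 against day 1 with or without it (PRDM1 2.97, adjusted p = 0.2), PRDM1 was 4.42 (adjusted p = 0.00658) and PRDM14 -2.58 (adjusted p = 0.00668) at day 5, and the signs that turned were PRDM2 0.09 and PRDM4 0.03 at day 1 and PRDM2 0.11 at day 3. List counts at day 5 moved most with array weights (B cell and plasma cell genes 4, germ cell genes 5, pluripotency genes 7), with a threshold of 0.01 (0, 0 and 2) and, for B cell and plasma cell genes, to 0 with technical array 2 alone, the 2-group fit or the dim filter, and to 2 with the block. The precision depended on the number of samples and on day 3 replicate 2, not on read depth.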

Other observations

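One probe set listed for both PRDM7 and PRDM9, a gene pair whose second member directs meiotic recombination, stood at 10.85 on the log2 scale in day 1 replicate 3, against 3.32 to 6.26 in the other 13 samples. A second probe set listed for the same pair had 6.22 in that sample and 3.51 to 6.32 in the others, so the 2 probe sets disagree there. The day 1 group has 3 samples, too few for the outlier test used elsewhere, and which gene the signal comes from was not tested. The pair of technical arrays of replicate 4 differed by at most 0.08 for PRDM1 and 0.05 for PRDM14, and by up to 0.58 for PRDM8 at day 5, a dim probe set.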
